A study of Homo sapiens and synthetic construct with 14 samples.

Results

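The positive controls of the genome-wide library are 90 short human genomic elements that the count tables mark as positive controls. They were taken as the elements that carry that mark in the tables of all 4 cell lines, out of 23789 elements in the library. The tables name 91 such elements, and 1 of them has no counts. In the assay, called MPRAduo, each element sits in a reporter plasmid beside 1 of 5 enhancers (En02, En09, En11, En19 and En21), so a member is measured as an element-enhancer pair. The positive controls gave 447 such pairs, of which 443 reached a mean of 20 plasmid counts and were tested, out of 112451 tested pairs in all. Of the 90 elements, 86 were measured beside all 5 enhancers. The other elements were chr17:44238571, chr1:26249024 and chr4:39555797, each measured beside 4 enhancers, and chr15:66070962, measured beside 1. Their lowest mean plasmid counts were between 3 and 15.2.

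The series was built around silencers of the RE1 type, the DNA motif bound by the repressor REST. Plasmids of the genome-wide library were introduced into 4 human cell lines, and RNA was collected after 24 h. The lines were GM12878 (a lymphoblastoid line made from B cells), HepG2 (a liver cancer line), K562 (a chronic myeloid leukaemia line) and SK-N-SH (a neuroblastoma line), each with 4 biological replicates per the series' design. All 4 lines are compared with the same 4 replicate counts of the plasmid pool, and no group carries a further agent or genotype.

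In such an assay, short barcodes in the reporter transcript tell which plasmid it came from. The ratio of a construct's barcode counts in RNA to those in the plasmid pool measures how much transcript each plasmid copy makes. In such assays a positive control is usually a sequence taken to raise reporter transcription, but the labels do not say how these were chosen or what the 5 enhancers are. Random elements stand for sequence with no chosen function. An enhancer raises transcription through the transcription factors that bind it, so its activity usually depends on the cell type. When a pair of active elements share a plasmid, the reporter RNA depends on both.

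Each element is named here by the chromosome and position that the tables give it. Of the 90 names, 68 also carry an allele field and 22 do not. No build for these positions is named in the sources used here. Over all 91 names in the tables, including the element without counts, 69 gave bases to compare with GRCh38 at the named positions. Of these 19 matched, so gene annotation and sequence of that build were not used here. For the same reason no gene, exon or motif is stated for any element. The elements lay on 20 chromosomes, with 12 on chromosome 17, 9 on chromosome 6 and 9 on chromosome 19.

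Total counts were 35194052 to 54483871 in the plasmid libraries and 50184575 to 94912250 in the RNA libraries. The positive controls held 0.390% to 0.399% of plasmid counts and 1.10% to 1.23% of RNA counts. A positive control pair was carried by a median of 22 barcodes beside En11, 37 beside En21, 46 beside En02, 66.5 beside En19 and 75 beside En09. The median of the mean plasmid counts ran in the same order, from 140.5 beside En11 and 206 beside En21 to 657 beside En09. The SD of a pair's log2 effect over the 4 RNA replicates had a median of 0.25 for GM12878, 0.16 for HepG2, 0.16 for K562 and 0.14 for SK-N-SH. Correlations between replicates over the positive control pairs were 0.857 to 0.940 in GM12878 and 0.984 to 0.991 in K562, so single-pair values in GM12878 are the least precise.

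Values are given on 3 scales, all log2. The level of a pair is its RNA over plasmid ratio after TMM scaling of all constructs, with no reference to other elements. The effect of a pair is its RNA over plasmid ratio minus that of the random elements beside the same enhancer in the same line, taken from the random elements' summed counts. The other scale, called the median scale, sets the median random element to 0 instead. The 10 random elements with the most RNA beside En02 in K562 held 44.4% of all random counts there, against 6.31% beside En21 in GM12878. Effects from summed counts were lower than effects from the median by 0.20 (En09, GM12878) to 1.78 (En02, K562), and results that differ between these scales are given on both.

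The positive controls were more active than random elements in every line. Of the 443 pairs, 310 were higher than the summed random elements for GM12878, 285 for HepG2, 274 for K562 and 303 for SK-N-SH (edgeR's quasi-likelihood test, Benjamini-Hochberg adjusted p under 0.05 over all pairs). Over all pairs of the library the shares called higher were 17.5%, 24.8%, 25.6% and 25.3% in the same order of lines, against 70.0%, 64.3%, 61.9% and 68.4% of the positive controls. The random pairs themselves were called higher in 15.1%, 19.1%, 21.9% and 22.2%, and the library's negative controls in 2.55%, 1.87%, 4.9% and 3.36%. Negative controls were called lower in 26.9%, 60.7%, 84.5% and 82.4%. The median positive control pair was above the summed random elements by 1.32 for GM12878, 1.27 for HepG2, 1.0 for K562 and 1.42 for SK-N-SH, which are 2.50-, 2.42-, 2.00- and 2.68-fold. The SD of this median over the 4 RNA replicates was 0.04, 0.03, 0.06 and 0.08.

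A minority of positive control pairs was below the summed random elements. The test called 23 pairs lower for GM12878, 90 for HepG2, 123 for K562 and 91 for SK-N-SH, against 26.3%, 48.7%, 64.8% and 62.9% of all pairs in those lines. The random pairs themselves were called lower in 25.1%, 50.5%, 68.1% and 64.2%. With the median random element set to 0, the lower calls among positive controls were 18, 56, 70 and 54, and the higher calls were 330, 308, 334 and 352. All pairs were then called higher in 24.8%, 36.7%, 42.1% and 39.8% and lower in 17.0%, 28.0%, 36.6% and 39.8%. The medians on that scale were 1.64, 1.69, 1.84 and 1.91. The line with the lowest median was thus K562 on the first scale and GM12878 on the second. Against the plasmid pool alone, with TMM scaling, 307, 321, 311 and 328 pairs were higher and 20, 89, 104 and 85 were lower, where all pairs were higher in 34.0%, 39.3%, 40.3% and 41.0% and lower in 31.4%, 45.9%, 52.3% and 51.8%.

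Enhancer strength was read from the random elements, which are not among the positive controls. En02 was the weakest and En21 the strongest enhancer in each line. In K562 the median level of random elements was -3.83 beside En02, -2.58 beside En11, -0.60 beside En19, 1.10 beside En09 and 2.03 beside En21. GM12878 had the narrowest spread, from -1.93 beside En02 to 1.06 beside En21. HepG2 ran from -2.76 to 1.85 and SK-N-SH from -3.36 to 2.53.

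The median level of the positive controls spanned less over the enhancers than that of random elements in every line. It kept the same order of enhancers in GM12878, K562 and SK-N-SH. In HepG2 it was 1.87 beside En19 and 1.74 beside En09, where random elements had -0.23 and 0.39. In K562 the median level of positive controls was 0.72 beside En02, 0.98 beside En11, 1.51 beside En19, 2.03 beside En09 and 3.12 beside En21. The difference between the highest and the lowest enhancer was 2.41 for positive controls and 5.85 for random elements in K562. It was 1.88 against 2.98 in GM12878, 1.54 against 4.61 in HepG2 and 3.01 against 5.89 in SK-N-SH. The level of the most active pair varied less between enhancers than that of the least active one. In K562 the highest positive control level was 4.91 beside En02, 4.95 beside En09, 4.67 beside En11, 4.77 beside En19 and 5.42 beside En21. The lowest positive control level, by contrast, was -3.98 beside En02 and -0.02 beside En21. In SK-N-SH the highest level ran from 4.03 beside En11 to 5.71 beside En21, in GM12878 from 3.21 beside En11 to 4.34 beside En19, and in HepG2 from 4.22 beside En11 to 5.43 beside En21.

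Measured against the random elements beside the same enhancer, the positive controls had their largest median effects beside the weak enhancers. In K562 the median effect was 2.71 (SD over replicates 0.10, 89 pairs) beside En02 and 2.49 (0.11, 87 pairs) beside En11. It was 1.26 (0.06, 88 pairs) beside En19, 0.58 (0.08, 89 pairs) beside En21 and 0.52 (0.04, 90 pairs) beside En09. The replicate values beside En02 lay between 2.62 and 2.82 and those beside En21 between 0.51 and 0.68. Both ranges come from the same 4 K562 libraries, so they are not independent groups. In HepG2 the same medians were 2.95 beside En02, 2.81 beside En11, 1.60 beside En19, 1.0 beside En09 and 0.64 beside En21. SK-N-SH gave 2.67 beside En02, 2.54 beside En11, 1.60 beside En19, 1.0 beside En09 and 0.68 beside En21.

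GM12878 had the smallest contrast, with 2.01 beside En02, 1.85 beside En11, 1.08 beside En19, 0.94 beside En09 and 0.99 beside En21. Its replicate ranges for En09 (0.91 to 0.99), En21 (0.94 to 1.08) and En19 (1.07 to 1.14) lay close together or overlapped. On the median scale the K562 effects were also largest beside the weak enhancers, with 4.48 beside En02, 3.52 beside En11 and 2.12 beside En19. The order did not hold between the strongest enhancers, with 0.93 beside En09 and 1.10 beside En21.

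The share of positive controls above nearly all random elements was also largest beside En02 and En11, and this count does not depend on the scaling. Beside En19, En21 and En09 its order differed from that of the median effects in GM12878, HepG2 and SK-N-SH. Beside En02 the pairs above the 95th percentile of random elements were 63 of 89 in GM12878, 55 of 89 in HepG2, 49 of 89 in K562 and 58 of 89 in SK-N-SH. Beside En11 they were 58, 55, 50 and 56 of 87, and beside En19 they were 36, 44, 40 and 40 of 88. Beside En21 they were 43, 30, 27 and 30 of 89. The lowest counts were beside En09, with 35, 21, 14 and 24 of 90. Pairs above the median random element beside En02 numbered 82, 74, 84 and 86 of 89 in the 4 lines, and beside En21 they numbered 73, 64, 62 and 68 of 89.

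The enhancer dependence was tested for each of the 86 elements measured beside all 5 enhancers. The F test over enhancers (edgeR, library as a block, adjusted over 21378 elements) called 62 positive controls for GM12878, 69 for HepG2, 82 for K562 and 84 for SK-N-SH. The background was 25.3%, 72.9%, 97.0% and 94.2% of all elements, so in HepG2, K562 and SK-N-SH the number of calls is near that of any element. The calls are split by direction next. Between En21 and En02, 54 positive controls had a lower effect beside the strong enhancer for GM12878, 58 for HepG2, 68 for K562 and 72 for SK-N-SH, where 10.3%, 22.6%, 26.4% and 22.6% of all elements did. A higher effect beside En21 was called for 0, 5, 3 and 3 positive controls, where 7.33%, 39.2%, 53.6% and 51.7% of all elements had one.

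The median difference, En21 minus En02, was -1.13 for GM12878, -1.95 for HepG2, -1.82 for K562 and -2.10 for SK-N-SH for the positive controls. Over all elements it was 0.01, 0.47, 0.73 and 0.59. With the median element as reference, the positive controls gave -1.33, -2.66, -3.08 and -2.96 and all elements gave -0.19, -0.24, -0.53 and -0.26. The lower calls on that scale were 58, 64, 84 and 81, against 13.3%, 34.7%, 48.0% and 41.7% of all elements, and the higher calls were 0, 1, 1 and 0, against 4.79%, 18.9%, 24.2% and 26.9%. The direction belongs to the comparison with random elements. With TMM scaling and no random reference it turned, and 76, 85, 86 and 86 of the 86 positive controls were higher beside En21 than beside En02. Of them, 1 element was lower in GM12878 and 0 were lower in HepG2, K562 and SK-N-SH. The median level of random elements was also higher beside En21, by 2.98, 4.61, 5.85 and 5.89. The share of all elements called higher was not computed under this scaling. In HepG2 the 5 elements with a higher effect beside En21 became 3, 2, 3 and 3 when plasmid replicate 1, 2, 3 or 4 was left out, and in GM12878 the count of 0 became 1 without RNA replicate 2.

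The level of elements that were strong in the other lines changed less with the enhancer than that of weak ones. For each line, the 86 elements were divided by their mean effect in the other 3 lines, so that the values described were not used to divide them, although all lines share the plasmid counts. In K562 the highest 22 elements had a median level of 2.93 beside En02 and 4.55 beside En21, and their levels spanned a median of 1.73 over the 5 enhancers. The lowest 22 elements went from -2.88 beside En02 to 1.27 beside En21, with a median span of 4.08. In HepG2 the spans were 1.33 for the highest and 4.12 for the lowest 22, in SK-N-SH 2.15 and 4.44, and in GM12878 1.57 and 2.38. The median level of random elements spanned 5.85 in K562, above the median span of both sets. No test was run on these spans.

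In K562 the highest 22 had median effects of 4.94 beside En02 and 1.99 beside En21. The lowest 22 had -0.88 beside En02 and -1.29 beside En21, below the summed random elements beside both. On the median scale the direction beside En02 turned, with 0.90 beside En02 and -0.76 beside En21. On the summed scale, 43 of the 86 elements were higher than random in all 20 combinations of 5 enhancers and 4 lines, 11 were higher in none, 52 were lower in none and 23 were higher in some and lower in others. No element was lower in all 20. On the median scale 51 elements were higher in all 20 and 4 were higher in none. These classes were counted for the positive controls alone, so no share over all elements is given beside them.

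The most active positive control was chr10:126150324. Its effect, averaged over the 5 enhancers, was 3.44 for GM12878, 4.35 for HepG2, 4.72 for K562 and 4.70 for SK-N-SH. The 4 replicates gave 3.23, 3.58, 3.41 and 3.52 for GM12878, 4.42, 4.29, 4.36 and 4.27 for HepG2, 4.82, 4.72, 4.68 and 4.65 for K562, and 4.71, 4.74, 4.66 and 4.64 for SK-N-SH. All GM12878 libraries lay below all others, and the K562 and SK-N-SH libraries overlapped (limma, K562 minus SK-N-SH 0.03, adjusted p = 0.809). Its level changed little with the enhancer in K562 and HepG2. In K562 it was 4.91 beside En02, 4.95 beside En09, 4.67 beside En11, 4.57 beside En19 and 5.28 beside En21, and in HepG2 it stayed between 4.11 and 4.60. It ran from 2.98 to 3.87 in GM12878 and from 4.03 to 5.71 in SK-N-SH. Set against the random elements, the same pairs had effects of 6.91 beside En02 and 2.74 beside En21 in K562, a difference of -4.18 (SE 0.13, edgeR adjusted p = 9.60e-59).

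The next in rank by their mean over all lines and enhancers were chr19:58144519, chr20:62152519, chr19:9434872, chr8:104033332, chr6:29910276, chr4:187112629 and chr14:24899194. Each was higher than random in all 20 combinations on both scales. Chr19:58144519 had mean effects of 3.09 ± 0.06 (fitted value ± SD over n = 4 replicates, here and below) for GM12878, 3.57 ± 0.02 for HepG2, 4.22 ± 0.11 for K562 and 3.82 ± 0.02 for SK-N-SH, and no replicate of one line reached the values of another. Chr20:62152519 was at 2.58 ± 0.14 for GM12878, 3.65 ± 0.11 for HepG2, 4.07 ± 0.10 for K562 and 3.82 ± 0.08 for SK-N-SH, where the GM12878 and the K562 libraries each stood clear of the rest and those of HepG2 and SK-N-SH overlapped. This element varied more between enhancers than chr10:126150324, with a level in K562 of 2.83 beside En11 and 5.05 beside En21.

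Chr19:9434872 ran from 2.88 ± 0.13 in GM12878 to 3.83 ± 0.17 in K562, where its level was 3.74 to 3.86 beside the other enhancers and 4.77 beside En21. Chr4:187112629 was highest in HepG2 (3.66 ± 0.05), where its level was between 3.18 beside En11 and 3.98 beside En21. Chr14:24899194 was highest in K562, with replicates of 4.24, 4.13, 4.08 and 4.00 against 3.0 to 3.13 in HepG2, 3.22 to 3.41 in SK-N-SH and 2.46 to 2.58 in GM12878. These 4 groups of libraries did not overlap.

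At the other end stood chr8:145054271, chr5:177135320, chr8:71570989, chr1:53246910 and chr9:34349863. Chr8:145054271 was lower than the summed random elements in 19 of 20 combinations and higher in 0, with a mean effect of -1.15 for HepG2, -2.30 for K562 and -1.78 for SK-N-SH. Its K562 replicates were -2.48, -2.46, -2.36 and -1.88. With the median element as reference, it was lower in 15 of 20. Its level still followed the enhancer, from -3.87 beside En02 to 0.18 beside En21 in K562. The others were lower in 16, 13, 18 and 13 of 20 combinations, and on the median scale in 11, 10, 11 and 9.

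In GM12878 chr8:71570989 gave replicate values of -1.38, -1.46, -3.17 and -0.70, while its fitted mean effect was -0.69. The replicate values average log2 ratios with a pseudocount of 0.5, while the fitted value averages the edgeR estimates of the pairs. The cause of the gap between them was not tested. In K562 the same element gave -1.37, -1.31, -1.25 and -1.29. Elements named without an allele field did not reach as low. In GM12878 the 20 fully measured elements without the field had mean effects from -0.01 to 3.33 (median 1.39), and the 66 with it from -1.19 to 3.44 (median 1.44).

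The 4 lines ranked the positive controls alike. Over the 86 elements, Pearson's r between mean effects was 0.94 for HepG2 and SK-N-SH, 0.93 for K562 and SK-N-SH, 0.92 for HepG2 and K562, and 0.81 to 0.84 for GM12878 with the others. These are descriptions over elements that share their plasmid counts. GM12878 also had the narrowest range of mean effects, from -1.19 to 3.44 with an SD of 1.09 over elements. K562 had the widest, from -2.30 to 4.72 with an SD of 1.86, while HepG2 and SK-N-SH had SDs of 1.73 and 1.68.

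Tests between lines called most positive controls, as they did most elements of the library. The edgeR F test over lines called 380 of 443 pairs, with a background of 71.3%, and the limma F test on the mean over enhancers called 75 of 86 elements, with a background of 74.5%. On the median scale these were 369 pairs (65.5%) and 72 elements (71.0%). GM12878 was below K562 for 41 elements and above it for 31 (limma, background 18.4% and 41.4%). With the median element as reference, 47 were below and 13 above (37.7% and 15.0%). GM12878 was below HepG2 for 45 elements and above for 25 (23.8% and 30.8%), and on the median scale for 45 and 19 (32.4% and 18.4%). It was below SK-N-SH for 41 elements and above for 20 (19.2% and 34.0%), and on the median scale for 47 and 10 (32.7% and 17.1%).

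HepG2 was below K562 for 26 and above it for 23 elements (13.2% and 27.6%), and on the median scale for 46 and 15 (29.3% and 14.5%). HepG2 was below SK-N-SH for 34 and above for 16 (13.9% and 21.2%), and on the median scale for 37 and 12 (18.7% and 16.7%). K562 was below SK-N-SH for 29 and above for 15 (19.6% and 13.7%), but on the median scale it was below for 18 and above for 23 (11.1% and 21.9%). The direction of the K562 and SK-N-SH comparison thus turned with the scaling.

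Some elements departed from this shared order. Chr6:27694516 was the most GM12878-dependent positive control. Its mean effect was 2.15 for GM12878, -1.38 for HepG2, -0.33 for K562 and 0.16 for SK-N-SH. The GM12878 replicates were 1.91, 1.90, 2.39 and 2.11, and the highest library of another line was 0.65. The difference from the mean of the other lines was 2.77 in GM12878 and -2.31 in HepG2 (limma F test, adjusted p = 2.03e-08). In K562 its sign depended on the scale, with 0.60 on the median scale, and it was higher than random beside En02 (1.16) and lower beside En21 (-1.66).

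Chr6:29910189 was also highest in GM12878, at 3.38 with replicates of 3.48, 3.39, 3.21 and 3.42. It reached 1.55 for HepG2, 1.40 for K562 and 2.00 for SK-N-SH, and no GM12878 library overlapped with another line (adjusted p = 5.47e-16). Chr6:26474096 was at 2.43 in GM12878 and 1.92 in HepG2 but at -0.48 in K562, where its replicates were -0.57, -0.52, -0.40 and -0.40 (0.45 on the median scale). Its SK-N-SH replicates, 0.70 to 1.15, lay between those groups.

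Chr1:24117684 showed the reverse pattern. It was lowest in GM12878 (1.04, replicates 1.22, 1.12, 0.48 and 1.08) and HepG2 (1.62, replicates 1.63, 1.67, 1.73 and 1.42), and high in K562 (3.08) and SK-N-SH (3.36). The K562 libraries, 2.92 to 3.35, and the SK-N-SH libraries, 3.26 to 3.47, overlapped. Chr6:3118952 was likewise low in GM12878, at 1.76 ± 0.08 against 3.06 ± 0.06 for HepG2, 3.57 ± 0.09 for K562 and 3.22 ± 0.03 for SK-N-SH.

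HepG2 stood out for chr16:21190092, chr19:38755406 and chr6:29910276. Chr16:21190092 was at 2.28 in HepG2 (replicates 2.36, 2.24, 2.33 and 2.16), 1.57 in SK-N-SH, 0.95 in GM12878 and 0.01 in K562 (0.94 on the median scale). Chr19:38755406 was at 2.35 ± 0.08 in HepG2 against 1.30 ± 0.13, 1.01 ± 0.07 and 1.03 ± 0.15 in GM12878, K562 and SK-N-SH. Chr17:43918239 was lowest in HepG2, at -1.36 ± 0.17 against 0.48 ± 0.34 in GM12878.

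K562 and SK-N-SH were farthest apart for chr19:13907805. Its mean effect was -1.87 for K562 and 1.78 for SK-N-SH, with 1.17 for GM12878 and -0.07 for HepG2. The K562 replicates were -1.86, -1.92, -1.84 and -1.81 and the SK-N-SH replicates 1.93, 1.93, 1.54 and 1.71 (limma F test over lines, adjusted p = 4.01e-15). In SK-N-SH its effect was 3.26 beside En02, 3.27 beside En11 and 2.60 beside En19, but -0.26 beside En09 and 0.04 beside En21. The GM12878 effects split alike, with 2.13, 1.92, 1.99, 0.05 and -0.26 in the same order of enhancers. Its level in SK-N-SH, with no reference to random elements, was between 0.87 and 2.99 over the 5 enhancers. In K562 the effect was below the summed random elements beside all 5 enhancers. On the median scale its K562 effect was 0.51 beside En02 (edgeR adjusted p = 0.0144), -0.52 beside En11 (adjusted p = 0.0705) and between -1.76 and -1.36 beside the others, and its HepG2 mean was 0.52.

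Chr12:120755405 was highest in K562, at 2.66 ± 0.12 against 1.18 ± 0.24 for GM12878, 1.74 ± 0.04 for HepG2 and 1.59 ± 0.08 for SK-N-SH. Chr15:75165471 was highest in SK-N-SH, at 3.02 ± 0.08 against 1.23 ± 0.03 in GM12878, 2.39 ± 0.07 in HepG2 and 2.12 ± 0.12 in K562. Chr20:39762758 was lowest in SK-N-SH, with replicates of 0.48, 0.62, 0.46 and 0.52. It was at 2.25 in GM12878, 1.78 in HepG2 and 1.60 in K562, and the SK-N-SH group did not overlap with any of these. Chr6:73978286 was also lowest in SK-N-SH, at 1.49 ± 0.07 against 1.99 ± 0.28 in GM12878, 2.27 ± 0.09 in HepG2 and 2.56 ± 0.19 in K562.

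The enhancer contrast also varied between elements. The largest falls in effect from En02 to En21 in SK-N-SH were those of chr11:50101065 (-3.87, SE 0.11) and chr16:1877175 (-3.81, SE 0.11). In SK-N-SH chr11:50101065 had a level of 1.72 beside En02 and 2.88 beside En21, so that its effect went from 3.82 to -0.04. In K562 its effect was 3.08 beside En02 and -0.58 beside En21. In GM12878 the largest falls were those of chr6:26474096 (-3.12, SE 0.29) and chr6:29910189 (-3.11, SE 0.10). The level of chr6:29910189 in GM12878 was 3.32 beside En02 and 3.12 beside En21, with 4.34 beside En19. The smallest called falls there were those of chr14:104053863 (-0.59, SE 0.20) and chr8:104033342 (-0.68, SE 0.13).

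A gain beside the strong enhancer was called for few positive controls. Chr19:38755406 had a larger effect beside En21 than beside En02 in K562 (1.65, SE 0.12, edgeR adjusted p = 3.90e-25) and SK-N-SH (0.99, SE 0.12, adjusted p = 3.91e-12). On the median scale these were 0.39 (adjusted p = 0.0020) and 0.13 (adjusted p = 0.35). In K562 its level went from -1.77 beside En02 to 4.43 beside En21, and its effects were 0.22 and 1.87. In HepG2, where the element was most active, the same contrast was -2.02 (SE 0.09). Chr17:65800140 rose in K562 (1.01, SE 0.25) and SK-N-SH (0.92, SE 0.24), and on the median scale it gave -0.25 (adjusted p = 0.40) and 0.06 (adjusted p = 0.84). In HepG2 the largest gains were 2.30 (SE 0.57) for chr2:131079526 and 1.33 (SE 0.50) for chr17:44263479. Their values on the median scale were 1.59 (edgeR adjusted p = 0.0191) and 0.62 (adjusted p = 0.301), so the call for chr17:44263479 was lost. Beside En02 in HepG2 the RNA counts of chr2:131079526 were 12, 5, 17 and 0, and those of chr17:44263479 were 57, 27, 23 and 0.

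Some elements changed sides between enhancers of a single line. In K562, 7 of 86 elements were called higher than random beside En02 and lower beside En21. The count was 5 in SK-N-SH, 1 in GM12878 and 0 in HepG2, and the opposite change was called for 0 elements in each line. With the median element as reference, the counts were 17, 12, 1 and 1, and again 0 for the opposite change. The 1 in GM12878 was chr4:100771395 (1.27 beside En02, -0.92 beside En21). Those in SK-N-SH were chr17:43685021 (1.78 and -1.36), chr6:27694516 (2.11 and -1.46), chr18:7622947 (0.82 and -1.21), chr1:10437778 (0.60 and -1.13) and chr17:43918239 (0.36 and -0.54). These elements were singled out after their values were seen. Changes of side were not counted over all elements of the library, so no background share is given for them.

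Names of 4 pairs of positive controls lie less than 200 bases apart, the window length that the benchmark library's names give, so their sequences may overlap. Chr6:29910189 and chr6:29910276 are 87 bases apart and ranked in opposite order between lines. The first was above the second by 0.80 in GM12878 (3.38 ± 0.12 against 2.58 ± 0.08). The same difference was -2.66 for HepG2 (1.55 ± 0.02 against 4.20 ± 0.06), -1.54 for K562 and -1.61 for SK-N-SH. Chr8:104033332 and chr8:104033342 are 10 bases apart, and the first was higher by 0.83 for GM12878, 0.97 for HepG2, 1.06 for K562 and 0.96 for SK-N-SH. Chr17:43807063 was above chr17:43807134, 71 bases away, by 0.66, 1.10, 0.98 and 1.63. Chr2:131079483 and chr2:131079526, 43 bases apart, had mean effects below 0 in each line and differed by 0.21 to 0.92, where in HepG2 the SD of the second was 1.02. The means of chr2:131079483 on the median scale turned to 0.08 to 0.26, and those of chr2:131079526 stayed below 0.

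The same positive controls were present in a separate library of noncanonical RE1 elements measured in K562. In the authors' deposited table, 378 pairs were shared, and the authors' log2 fold changes in that library and in the genome-wide library in K562 had a Pearson's r of 0.96 over pairs. By the authors' deposited table, 372 of the 378 were higher than plasmid in that library at an adjusted p under 0.05 and 0 were lower. The authors' medians per enhancer were 3.47 beside En02 and 5.36 beside En21 in that library and 4.76 and 7.05 in the genome-wide library. In the authors' deposited table for the genome-wide library, fold changes followed the TMM levels given above with a constant offset of 2.16 in GM12878 to 3.93 in K562, so only their differences are comparable. Of the negative controls shared by both libraries, 320 of 397 pairs were also higher than plasmid in the authors' deposited table, with 18 lower, so most controls of both kinds were called higher there. Beside En09, En19 and En21 every shared pair of both kinds was higher. Beside En11, 50 of 54 positive and 40 of 47 negative control pairs were higher. Beside En02 these were 78 of 80 and 13 of 83, and all 18 lower negative control pairs were there. The share over all constructs of that library was not computed.

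The benchmark library, measured in GM12878 alone, held 31 of the same windows, matched by position within 2 bases. The log2 fold changes in the authors' deposited table ran with the plmd columns divided by the cDNA columns (Pearson's r 0.986 in run 1 and 0.996 in run 2 over 3136 pairs). The headings would give the opposite direction if those fold changes are RNA over plasmid, which the sources used here do not state. The ratio is given here in the direction of the authors' fold changes, against the random elements beside the same enhancer. In run 2, the library labelled ES, the median log2 ratio over 144 shared pairs was 1.31, and the effects of the same pairs in the genome-wide library had a median of 1.40 (Pearson's r 0.85). In run 1, the library labelled SE, the median over 147 pairs was 0.26 against 1.45 in the genome-wide library (r 0.67). These correlations are over pairs that share elements and enhancers, and no test was run on them.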

How the data were processed

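Barcode counts were deposited by the authors per construct, line and replicate, beside their own log2 fold change with its standard error, their adjusted p-value in 1 table, and a mean plasmid signal. Per the file headers these columns are counts, log2 fold changes and p-values, and the aligner, barcode counter and genome build are not given in the sources used here. Pairs under a mean of 20 plasmid counts were left out. RNA and plasmid counts were compared with edgeR 4.0.16 (quasi-likelihood test) with library sizes set to the summed counts of random elements beside the same enhancer. Differences between enhancers used library as a block, and differences between lines used edgeR and limma 3.58.1 (log2, pseudocount 0.5). P-values were adjusted over all constructs or elements (Benjamini-Hochberg, threshold 0.05). The positive controls, the lists and the rule for named elements were chosen with earlier results of these data known. Named were the 8 highest and 5 lowest elements by mean effect, per line the 3 highest and 2 lowest against the other lines, and per line the 2 highest and 2 lowest differences between En21 and En02. Alternatives were another random scaling, negative controls added, TMM, a plasmid minimum of 100 or none, a pseudocount of 5, DESeq2 1.42.0, and leaving out each replicate or enhancer, with the replicate number as a block added after seeing the data. Scripts were tested on simulated data with known log2 changes of 1 and 2. The test of En21 against En02 in K562 called 17% and 93% of them, and 1.79% of its calls were false. RNA against plasmid in K562 called 48% and 96%, with 4.64% of calls false. Between lines 6.94% of called pairs and 6.98% of called elements were false, above the threshold of 0.05. The tables were read with Python 3.11.15 and R 4.3.3.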

Additional observations from a re-analysis of the deposited data

Results flagged for a closer look

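Mean effects of 2 of the 152 sets of 4 replicates examined held a value far from the rest, where chance flags about 1 in 20. Replicate 4 gave 2.58 for chr14:24899194 in GM12878 against 2.46 to 2.48 in the others. Replicate 4 gave 2.23 for chr19:38755406 in HepG2 against 2.39 to 2.40 in the others.

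Positive controls whose effect differed between lines (limma F test past the threshold) are given here as the effect in 1 line minus the mean of the other lines. In GM12878 the difference was 2.77 for chr6:27694516, 1.73 for chr6:29910189 and 1.61 for chr6:26474096, and it was -1.71 for chr1:24117684 and -1.53 for chr6:3118952. In HepG2 it was 1.44 for chr16:21190092, 1.25 for chr19:38755406 and 1.16 for chr6:29910276, and -2.31 for chr6:27694516 and -1.40 for chr17:43918239. K562 gave 1.18 for chr12:120755405, 1.15 for chr14:24899194 and 1.09 for chr1:24117684, and -2.79 for chr19:13907805 and -2.21 for chr6:26474096. SK-N-SH gave 2.06 for chr19:13907805, 1.48 for chr1:24117684 and 1.12 for chr15:75165471, and -1.35 for chr20:39762758 and -0.78 for chr6:73978286.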

How the results depend on the processing

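With the median random element as reference, the median effects became 1.64 for GM12878, 1.69 for HepG2, 1.84 for K562 and 1.91 for SK-N-SH, and lower pairs fell in number to 56 for HepG2, 70 for K562 and 54 for SK-N-SH. In K562 the mean effects of chr17:43918239, chr6:26474096 and chr6:27694516 changed sign to 0.61, 0.45 and 0.60. The medians in the order of lines above were 1.37, 1.79, 1.69 and 1.89 under TMM, 1.41, 1.40, 1.25 and 1.58 with negative controls added, and 1.39, 1.43, 1.36 and 1.58 with a plasmid minimum of 100. At that minimum 54 elements stayed measured beside all enhancers, and those that differed between enhancers were 53 for K562 and 54 for SK-N-SH, with 47 and 48 between En21 and En02. Leaving out 1 replicate at a time gave medians of 1.30 to 1.36 in GM12878, 1.25 to 1.31 in HepG2 and 1.0 to 1.12 in K562. Under DESeq2, a pseudocount of 5, no plasmid minimum and the omission of any enhancer, the counts of calls recomputed stayed within 1.5 times. The cause of the changes under other scalings was not tested. The count columns number RNA and plasmid replicates alike, and deviations of same-numbered columns correlated at -0.0783 to 0.150 between groups, so the numbers were not taken as pairs. With that number as a replicate block, an alternative chosen after seeing the data, the pairs called higher were 298, 282, 270 and 297 in the order of lines above and those called lower 23, 84, 118 and 89. Between lines, 374 pairs and 76 elements then differed. The shares over all pairs and elements were not computed with this block. Without it, 71.3% of all pairs and 74.5% of all elements differed between lines. Replicate values of single pairs had the widest spread in GM12878, at median RNA counts similar to those of the other lines.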
